A study of Mus musculus with 16 samples.

Results

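The oxidative phosphorylation system is built from subunits of separate genetic origin, and the 86 genes described here are those of respiratory complexes I, III and IV and of the ATP synthase (complex V). They were chosen by name: rows of the count table whose mouse symbol begins as the Nduf, Uqcr, Cox4 to Cox8, Atp5 or protein-coding mt- genes do, with a mean of at least 5 CPM over 16 libraries (CPM is the count of a gene scaled to the total of its library). Of 55356 identifiers in the table, 52080 had a symbol and 106 of them matched the names. The level threshold kept 73 genes of the nuclear genome (37 of complex I, 8 of complex III, 11 of complex IV, 17 of complex V) and the 13 protein-coding genes of the mitochondrial genome (7, 1, 3 and 2). The 20 rows left out were pseudogenes, near copies, isoforms of other tissues and a second identifier of Atp5o at 0 CPM. The nearest of them outside the threshold was Ndufb4c at 4.77 CPM, and the nearest member inside was Atp5s at 11.5 CPM. The names follow habit and not function in a few cases. Ndufb1-ps, kept by its name, is annotated as a noncoding RNA of a bidirectional promoter. Ndufa4 is named for complex I but belongs to complex IV, Cox7a2l helps complexes III and IV join into supercomplexes, and Atp5s is a factor of the ATP synthase that is not one of its structural subunits. All counts and medians by complex follow the names, with Ndufa4 in complex I, Cox7a2l in IV and Atp5s in V.

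The respiratory chain passes electrons from NADH and succinate to oxygen and pumps protons, and complex V uses the proton gradient to make ATP. Mitochondrial DNA is transcribed inside the organelle into long transcripts from both strands, which are cut into the messenger RNAs of subunits at the catalytic core. All other subunits are transcribed in the nucleus, translated in the cytosol and imported, so the complexes draw on messenger RNA made in separate compartments. Neurons depend heavily on this system, and in sensory neurons mitochondria travel along microtubules to supply the axon.

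Total RNA, depleted of ribosomal RNA, was sequenced from neurons of embryonic dorsal root ganglia of CD1 mice after 6 days in culture with nerve growth factor, fluorodeoxyuridine and uridine. The 4 groups held 4 libraries each. DMSO libraries received vehicle at both steps, and nocodazole libraries received vehicle and then 200 nM nocodazole, a drug that depolymerises microtubules. Inhibitor libraries received 500 nM GNE3511, which blocks dual leucine zipper kinase (DLK), and then vehicle, and inhibitor plus nocodazole libraries received both. The first addition preceded the second by 15 min, and the second lasted 16 h. DLK is the kinase that reports axonal and cytoskeletal stress to the nucleus, and the design asks how much of the response to nocodazole needs it. The labels do not say whether replicates were separate cultures or litters. The p-values therefore reflect only how far these samples differ, and that spread may be technical. A compound at 1 dose was used, so effects through DLK and through other targets cannot be told apart.

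Libraries held 30987962 to 43321421 counts. All 14 neuronal marker genes examined were above 1 CPM, while 9 of 12 Schwann and satellite glia markers (Sox10 among them), 8 of 10 fibroblast markers, all 6 endothelial markers, 4 of 6 macrophage markers and all 6 pericyte and smooth muscle markers were under it. The test across genes was edgeR's quasi-likelihood test with Benjamini-Hochberg adjustment over the 19156 genes tested in each comparison, and a gene was called at an adjusted p below 0.05. All 86 members were tested. Changes are log2 fold changes with their standard error (SE), and levels are CPM on scaled library sizes. As CPM are shares of a library made from bulk cultures, fewer cells of a type and less RNA per cell cannot be told apart.

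Per kilobase of transcript, the mitochondrial genes stood far above the nuclear ones. Their mean level was 783 ± 184 CPM per kb (SD over 16 libraries) against 107 ± 6.81 CPM per kb for the nuclear class. The highest was mt-Co1 (ENSMUSG00000064351.1), the catalytic subunit of cytochrome oxidase, at 2703 CPM per kb, followed by mt-Nd1 at 1038 and mt-Co2 at 1024. The highest nuclear genes were Atp5b, the catalytic β subunit of ATP synthase, at 598 CPM per kb, and Cox6a1, a cytochrome oxidase subunit, at 413. Of the 13 mitochondrial genes, 9 lay above Atp5b. mt-Nd2 lay between Atp5b and Cox6a1 at 432 CPM per kb, and mt-Atp8 at 176, mt-Nd6 at 143 and mt-Nd3 at 101 lay below both. mt-Nd6 is the sole protein gene read from the other strand of the mitochondrial genome. Among nuclear genes the median level per kb was 53.4 for complex I, 93.7 for complex III, 162 for complex IV and 93.4 for complex V. Lengths are those of the longest coding transcript of each gene, so genes with a long rare transcript, such as Atp5g1 and Ndufb2, are understated. The genes mt-Atp8 and mt-Atp6, and mt-Nd4l and mt-Nd4, overlap in the genome, and reads in the overlaps could have gone to either.

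Within complex IV and related sets, the genes detected were the forms common to most tissues. Cox4i1 (226 CPM on average), Cox6a1, Cox6b1, Cox7a2 and Cox8a passed the threshold. Their counterparts did not: Cox4i2, the lung form, had 0 to 6 counts per library, Cox7a1, a muscle form, 2 to 13, Cox8b, another muscle form, 0 to 2, and Cox6b2, the testis form, 24 to 99. Cox6a2, the heart and skeletal muscle form, had 4, 1, 9 and 3 counts in DMSO replicates 1 to 4, and 37, 36, 8 and 7 in nocodazole. It had 6, 37, 24 and 9 counts with inhibitor and 44, 7, 5 and 25 with inhibitor plus nocodazole. Its level was over 1 CPM in 4 libraries (nocodazole replicates 1 and 2, inhibitor replicate 2 and inhibitor plus nocodazole replicate 1) and between 0.0293 and 0.751 CPM in the other 12. The change after nocodazole was 2.42 ± 0.81 (SE, edgeR adjusted p = 0.0265), at a mean level of 0.469 CPM. Ndufa4l2, the hypoxia-inducible relative of Ndufa4, had 5 to 16 counts per library and changed by 0.99 ± 0.368 after nocodazole (edgeR adjusted p = 0.0444). All 3 genes of the c-ring of ATP synthase were expressed, Atp5g3 at 214, Atp5g1 at 177 and Atp5g2 at 39.6 CPM, and none was called in any comparison.

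Promoters of 3 nuclear members are shown because transcripts of the factors that bind this class of promoters changed after nocodazole. RefSeq promoter sequences (GRCm38.p6) were matched for 62 of 73 nuclear members, and the 250 bases before the start were searched on both strands. The NRF1 motif stood in 10 of them (16.1%) against 3.74% of all 32851 promoters. The ETS motif CCGGAAG, which GABP binds, stood in 10 (16.1%) against 6.91%. The ESRRA motif TCAAGGTCA stood in 1, that of Atp5g3, against 0.387%, and the YY1 motif in none, against 0.301%. Members had 1 window each, the most upstream, while the 32851 include every window given and were not matched for base content. In 52 of the 62 member windows the bases after the start occurred in a transcript of the gene. A match is a description of letters and not a site shown to be bound. In all, 19 promoters held at least 1 motif. Those of Cox6a1 and Atp5h, a subunit of the stalk of ATP synthase, held both NRF1 and ETS motifs. That of Ndufs3, a core subunit of complex I, was the only promoter with a motif among the 5 matched members called after nocodazole. The windows are chr5:115348959-115349208 for Cox6a1, chr11:115419920-115420169 for Atp5h and chr2:90904722-90904971 for Ndufs3, all on the minus strand, printed 5′ to 3′ in the direction of transcription with the motifs in capitals.
Cox6a1: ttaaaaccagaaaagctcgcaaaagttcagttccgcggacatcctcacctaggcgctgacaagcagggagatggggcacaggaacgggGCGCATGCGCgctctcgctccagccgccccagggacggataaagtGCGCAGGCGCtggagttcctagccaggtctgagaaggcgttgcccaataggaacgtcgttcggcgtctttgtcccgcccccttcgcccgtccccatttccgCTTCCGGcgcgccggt
Atp5h: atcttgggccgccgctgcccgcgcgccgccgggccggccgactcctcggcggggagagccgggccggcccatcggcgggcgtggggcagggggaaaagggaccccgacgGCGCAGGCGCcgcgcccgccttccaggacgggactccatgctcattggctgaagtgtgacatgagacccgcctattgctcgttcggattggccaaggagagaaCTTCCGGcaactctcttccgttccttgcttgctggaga
Ndufs3: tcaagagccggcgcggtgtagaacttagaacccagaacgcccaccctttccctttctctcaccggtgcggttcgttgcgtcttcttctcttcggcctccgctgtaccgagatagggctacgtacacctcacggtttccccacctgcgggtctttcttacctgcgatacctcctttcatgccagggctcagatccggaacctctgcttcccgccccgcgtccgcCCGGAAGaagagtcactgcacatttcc
Cox6a1 holds the NRF1 motif at 2 places and the ETS motif near the start, and Atp5h holds each once. The median change after nocodazole was 0.00 for the 10 members with the NRF1 motif and -0.06 for the 52 without it. For the ETS motif the medians were -0.02 for the 10 with it and -0.06 for the 52 without.

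The nuclear class was nearly level across the 4 groups, while the mitochondrial class varied widely between libraries of the same group. Summed over 73 genes, nuclear transcripts came to 8578 ± 434 CPM (SD, n = 4) in DMSO, 8183 ± 499 in nocodazole, 8069.5 ± 479.7 in inhibitor and 8257 ± 522 in inhibitor plus nocodazole. Over all 16 libraries the highest nuclear sum was 1.24 times the lowest. Mitochondrial transcripts, summed over 13 genes, came to 10943, 8491, 9033 and 7961 CPM in DMSO replicates 1 to 4, and to 13422, 14846, 8800.03 and 9792 CPM in nocodazole. They came to 10870.2, 13322, 17383 and 10663 CPM in inhibitor, and to 16067, 10977, 9535 and 8549 CPM in inhibitor plus nocodazole. Group means were 9107, 11715, 13059.5 and 11282 CPM, and the highest library was 2.18 times the lowest. Each treated group held libraries within the DMSO range and at least 1 far above it. The group standing farthest from DMSO was inhibitor, whose lowest library, at 10663 CPM, still lay under the DMSO maximum.

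**Figure D1:**
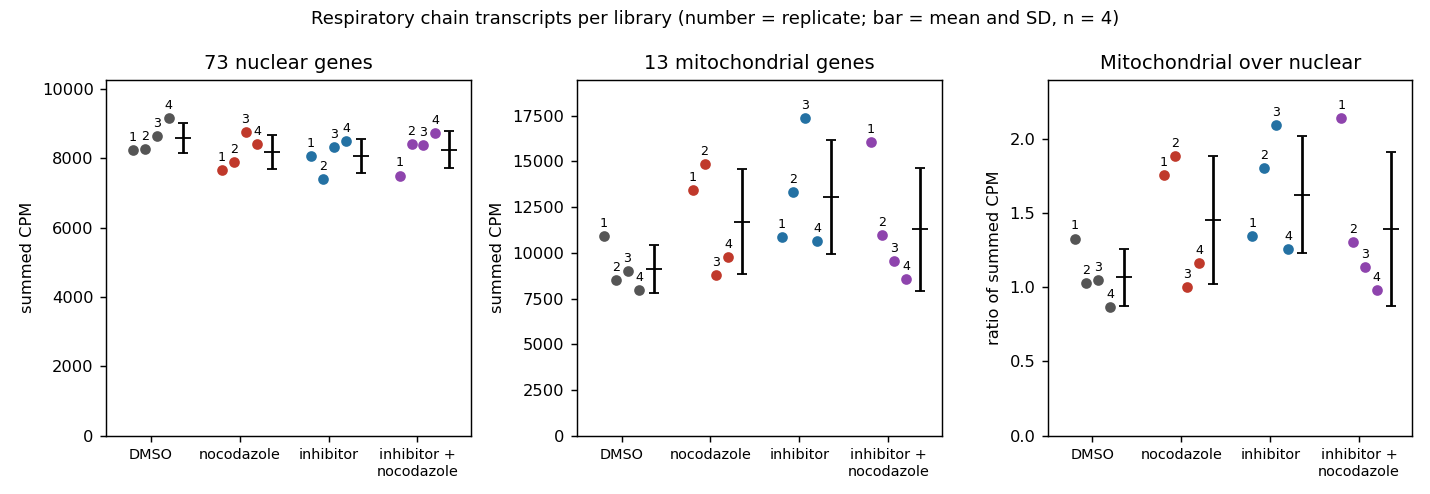
Summed CPM of the 73 nuclear genes, summed CPM of the 13 mitochondrial genes and their ratio (linear axes from 0), with 1 numbered point per library and a bar for the mean and SD of 4 libraries in each group. Nuclear sums lie between 7399 and 9169.97 CPM in all groups, and the mitochondrial sums of the treated groups spread from 8549 to 17383 CPM.

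The ratio of mitochondrial to nuclear transcripts was 1.07 ± 0.191 (SD, n = 4) in DMSO, 1.45 ± 0.431 in nocodazole, 1.62 ± 0.392 in inhibitor and 1.39 ± 0.517 in inhibitor plus nocodazole. By library it ran from 0.868 in DMSO replicate 4 to 2.14 in inhibitor plus nocodazole replicate 1. The 5 highest ratios belonged to that library and to inhibitor replicate 3 (2.09), nocodazole replicate 2 (1.88), inhibitor replicate 2 (1.80) and nocodazole replicate 1 (1.75). The next library, inhibitor replicate 1, stood at 1.35. The other 6 treated libraries, from 0.980 to 1.31, fell within the DMSO range of 0.868 to 1.33. The 5 libraries with the highest ratios carry consecutive sample numbers in the labels, with no DMSO library among them. What that order stands for is not given. For these 5 libraries, effects of treatment and of that order cannot be told apart.

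Some other readouts moved with this ratio, and some did not. In the 5 libraries with the highest ratios the summed neuronal markers were 14456, 16465, 14823, 15772 and 14721 CPM, against 16108 to 19544 CPM in the other 11. Summed Schwann and satellite glia markers were 79.9 to 115 CPM in those 5 and 130.1 to 185 CPM in the others, with 9 of 12, Sox10 among them, under 1 CPM. The nuclear RNA Malat1 was at 11034 to 12773 CPM in the 5 and at 6157 to 11743 CPM in the others. Cox6a2 had 24 to 44 counts in the 5 and 1 to 25 in the others. The part of these features in the mitochondrial values was not tested.

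The 13 mitochondrial genes moved together from library to library, more tightly than the nuclear genes did among themselves. The median SD within groups was 0.29 on the log2 scale for mitochondrial genes, 0.11 for nuclear genes and 0.10 for all 5421 genes tested with at least 35 CPM. The Pearson correlation of each gene with the rest of its class over 16 libraries had a median of 0.95 for mitochondrial genes (0.64 to 0.98) and 0.76 for nuclear genes (-0.35 to 0.96). These are descriptions, since the points share library scaling and the group differences. The lowest mitochondrial value was that of mt-Nd3, and the lowest nuclear ones were those of the complex I accessory genes Ndufa12 (-0.35) and Ndufa9 (-0.31) and of Atp5g2 (-0.25). Within the mitochondrial sum, mt-Co1 took 32.7% to 41.4%, and its share was 36.9% to 41.4% in the 5 libraries with the highest ratios.

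**Figure D2:**
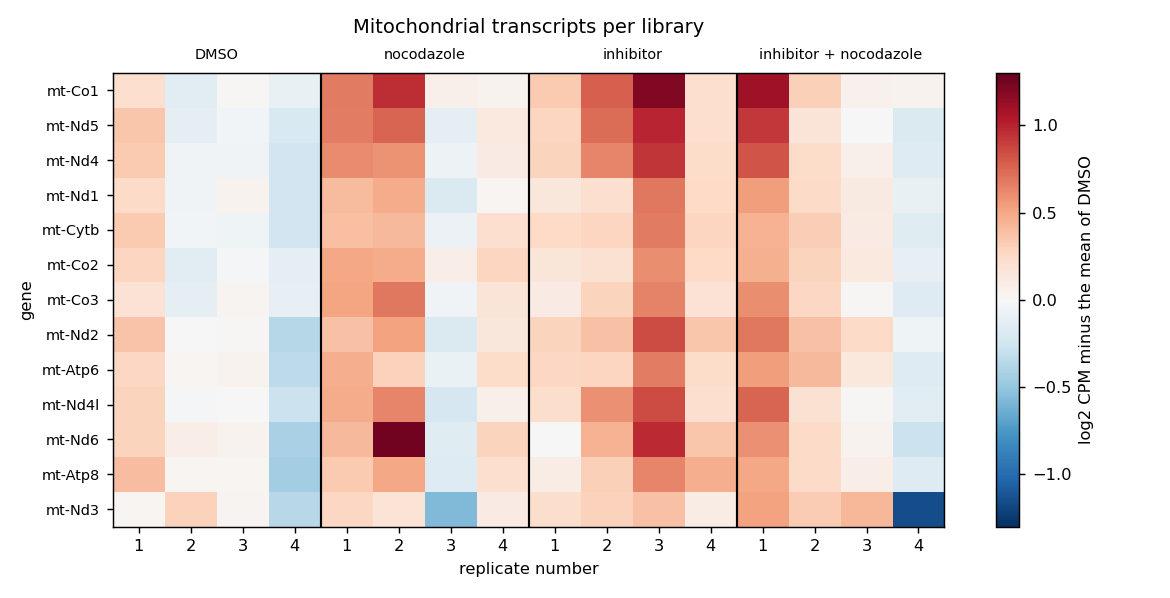
Log2 CPM of each mitochondrial gene (rows, ordered by level) minus its DMSO mean in each of the 16 libraries (columns, replicates 1 to 4 of each group), red for higher and blue for lower. Nocodazole replicates 1 and 2, inhibitor replicates 2 and 3 and inhibitor plus nocodazole replicate 1 are red in nearly all rows, and mt-Nd3 in inhibitor plus nocodazole replicate 4 (14.6 CPM) is the deepest blue.

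After nocodazole without inhibitor, 7 of 73 nuclear genes fell and 0 rose, while none of 13 mitochondrial genes was called. Of all genes tested, 19% fell and 18.6% rose in this comparison. The genes that fell were the complex I genes Ndufs1, Ndufb10, Ndufs3 and Ndufv3, the complex III genes Uqcrfs1 and Uqcrc2, and Cox7a2l. The changes were small, from -0.13 to -0.30 on the log2 scale. The nuclear median was -0.05, with 53 of 73 genes below 0 and a range of -0.30 to 0.18, and the median over all genes tested was 0.01. For 72 of 73 nuclear genes the 95% interval of the change lay within 0.5 of 0 on the log2 scale. Cell type markers also differed between these groups. Summed neuronal markers were 18242 to 19544 CPM in DMSO and 14721 to 17510 CPM after nocodazole, and Schwann and satellite glia markers 161 to 185 and 93.6 to 146 CPM. Single markers did not all follow these sums. Of 14 neuronal markers 8 were called lower, Tubb3 with the largest decrease, and 1 (Avil) higher. Tubb3 encodes a tubulin, the protein of the microtubules that nocodazole depolymerises, so the neuronal sum need not follow the number of neurons. With 9 of 12 glia markers under 1 CPM, 5 were tested. Their median change was 0.09, with 1 (Erbb3) called higher and 1 (Mbp) lower. Macrophage markers, 4 of 6 of them under 1 CPM, summed to 2.22 to 2.62 CPM in DMSO and 4.16 to 5.59 CPM after nocodazole. None of these ranges overlapped, and their part in the changes of either class was not tested.

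Uqcrfs1 (ENSMUSG00000038462.4), the Rieske iron-sulfur protein that takes electrons from ubiquinol, was at 83.0, 88.6, 92.6 and 98.4 CPM in DMSO and at 67.5, 74.2, 81.6 and 72.0 CPM after nocodazole. Every nocodazole library lay below every DMSO library, and the change was -0.30 ± 0.0839 (SE, edgeR adjusted p = 0.0107). Ndufs1 (ENSMUSG00000025968.17), the largest core subunit of complex I, with iron-sulfur clusters of the electron path, was at 122, 125, 121 and 135 CPM in DMSO and at 104, 111, 107 and 111 CPM after nocodazole. These ranges also did not overlap (-0.22 ± 0.0539, edgeR adjusted p = 0.00469). Ndufb10, an accessory subunit of the membrane arm of complex I, went from 55.0 to 62.3 CPM down to 46.5 to 52.5 CPM (-0.22 ± 0.0602, edgeR adjusted p = 0.00947). Cox7a2l was at 83.5, 89.5, 90.9 and 94.2 CPM in DMSO and at 74.1, 76.5, 81.2 and 77.8 CPM after nocodazole (-0.21 ± 0.0624, edgeR adjusted p = 0.0143). Ndufs3, Uqcrc2, a core subunit of complex III, and Ndufv3, an accessory subunit of the NADH-binding module, had changes of -0.20, -0.14 and -0.13. These 3 calls were lost under 2, 3 and 7 of the 23 alternatives, with adjusted p of up to 0.0575, 0.0846 and 0.150, while those of Uqcrfs1, Ndufs1, Ndufb10 and Cox7a2l held under all 23. In 10 of 73 nuclear genes all nocodazole libraries lay below all DMSO libraries, and in none above, while 36.9% of all genes tested had groups that did not overlap.

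**Figure D3:**
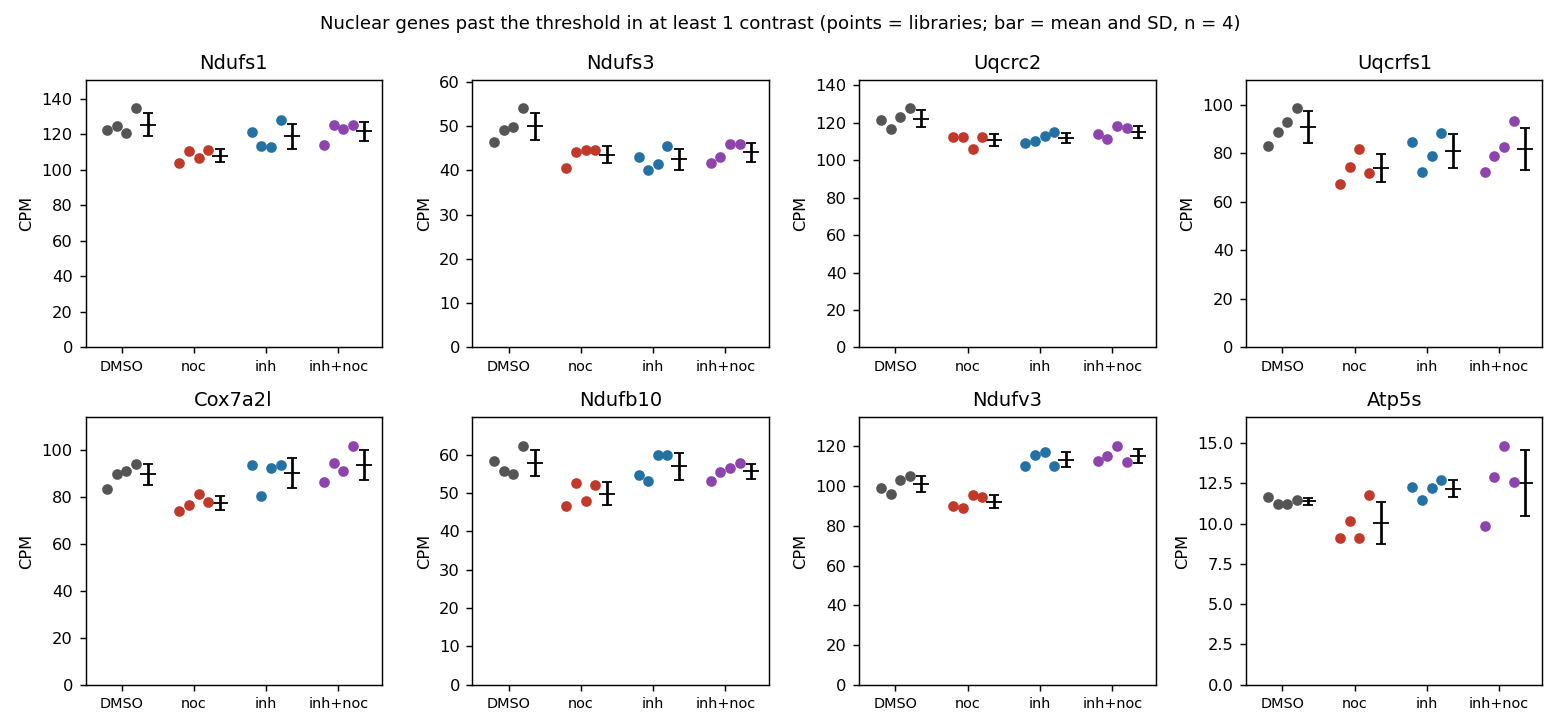
CPM of the 8 nuclear genes called in at least 1 comparison (linear axes from 0), with 1 point per library and a bar for the mean and SD of 4 libraries in each group. For Ndufs1, Cox7a2l, Uqcrfs1 and Ndufb10 the 4 nocodazole points lie below the 4 DMSO points, and for Ndufv3 both inhibitor groups lie above both groups without it.

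Among complex I genes, all 7 nuclear core subunits had negative changes after nocodazole (median -0.09, 2 called), as did 21 of the 30 accessory genes (median -0.04, 2 called). By complex, the nuclear medians were -0.05 for complex I, -0.11 for III, 0.02 for IV and -0.09 for V, where none of 17 genes was called. Atp5b was at 1148, 1196, 1239 and 1345 CPM in DMSO and at 1063, 1037, 1205 and 1163 CPM after nocodazole, with overlapping ranges. Uqcrc1, the complex III gene with the highest CPM, was at 324 ± 21.4 and 309 ± 9.93 CPM (SD, n = 4), and Ndufa10, an accessory complex I gene, at 159 ± 6.99 and 153 ± 6.42 CPM. Cox6a1 was at 235 ± 13.5 and 249 ± 30.3 CPM. Neither these 3 genes nor Atp5b passed the test.

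All 13 mitochondrial genes had positive changes after nocodazole, from 0.01 for mt-Nd3 to 0.52 for mt-Nd6, with a median of 0.26. At an unadjusted p under 0.05, edgeR gave 1 higher and 0 lower, against 4416 higher and 4484 lower of all 19156 genes tested. DESeq2 called 1 mitochondrial gene, which was mt-Co2 (ENSMUSG00000064354.1). This gene for the copper-bearing subunit of cytochrome oxidase was at 727, 546, 592 and 547 CPM in DMSO and at 848, 837, 635 and 728 CPM after nocodazole. Replicate 1 of DMSO overlapped the nocodazole range, and the change was 0.34 ± 0.133 (SE, edgeR adjusted p = 0.0558). mt-Co1 was at 3614, 2816, 3138 and 2903 CPM in DMSO and at 4953, 6031, 3244 and 3201 CPM after nocodazole. Replicates 1 and 2 were high, replicates 3 and 4 lay within the DMSO range, and the change was 0.48 with a 95% interval of -0.06 to 1.03 (edgeR adjusted p = 0.154). mt-Nd6 was at 141 CPM in nocodazole replicate 2 and at 53.0 to 79.0 CPM in the other 3, against 44.2 to 72.3 CPM in DMSO.

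The call of none for mitochondrial genes became 1 call, of mt-Co2, under 8 of the 23 alternatives, among them leaving out DMSO replicate 1, inhibitor replicate 3 or inhibitor plus nocodazole replicate 1 or 4. It became 3 calls without nocodazole replicate 3 (mt-Co2, mt-Co3 and mt-Nd6), where 16.5% of all genes tested rose, and the adjusted p of mt-Co2, by edgeR or DESeq2, ran from 0.0234 to 0.149 over the alternatives. Without DMSO replicate 4, the library with the highest nuclear sum, 4 nuclear genes were called in place of 7.

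After the inhibitor without nocodazole, 1 nuclear gene rose, 1 fell and no mitochondrial gene was called, in a comparison that shares the DMSO libraries with the one above. Of all genes tested, 5.78% rose and 7.24% fell. Ndufv3 was at 99.1, 96.1, 103 and 105 CPM in DMSO and at 110.0, 115, 117 and 110.0 CPM with inhibitor, with no overlap (0.17 ± 0.0461, SE, edgeR adjusted p = 0.0268). Ndufs3 was at 46.5, 49.2, 49.9 and 53.9 CPM in DMSO and at 43.1, 40.0, 41.4 and 45.6 CPM with inhibitor, again with no overlap (-0.23 ± 0.0597, edgeR adjusted p = 0.0194). The nuclear median was -0.06, with 56 of 73 genes below 0, and all 7 nuclear core genes of complex I were below 0 (median -0.09). All 73 intervals lay within 0.5 of 0 on the log2 scale. Summed neuronal markers were lower here too, at 15772 to 17931 CPM with inhibitor, and their part in these changes was not tested. Without inhibitor replicate 2 or 3 no nuclear gene was called, and the count was 4 under DESeq2, under scaling without mitochondrially encoded genes, and without inhibitor replicate 4, inhibitor plus nocodazole replicate 3 or nocodazole replicate 3 or 4.

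All 13 mitochondrial genes had positive changes with inhibitor, from 0.24 for mt-Nd3 to 0.68 for mt-Co1, with a median of 0.37, against 0.03 over all genes tested. Of these, 8 were higher at an unadjusted p under 0.05 by edgeR and 0 lower, against 2900 higher and 2726 lower of all 19156 genes. DESeq2 called none of the 13. As these genes moved together from library to library, they are not 13 independent results. mt-Co1 was at 3923, 5308, 7125 and 3616 CPM with inhibitor, and its lowest library stood barely above the DMSO maximum of 3614 CPM (0.68 ± 0.259, SE, edgeR adjusted p = 0.0924). It was the 1 of 13 mitochondrial genes whose groups did not overlap, against 21.7% of all genes tested. mt-Cytb, the cytochrome b gene of complex III, was at 1069, 819, 811 and 706 CPM in DMSO and at 1008, 1024, 1342 and 1023 CPM with inhibitor. Its replicate 3 was high and DMSO replicate 1 overlapped the rest (0.37 ± 0.149, edgeR adjusted p = 0.112). mt-Nd4, a proton-pumping subunit of complex I, changed by 0.54 ± 0.211 (edgeR adjusted p = 0.102). mt-Co1 and mt-Nd4 were called when the DMSO and inhibitor libraries were fitted alone, where 6.77% of all genes tested rose, and without inhibitor plus nocodazole replicate 1, where 7.01% did. Over the alternatives the edgeR and DESeq2 adjusted p ran from 0.0356 to 0.288 for mt-Co1 and from 0.047 to 0.287 for mt-Nd4.

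With the inhibitor present, nocodazole called no member of either class, in a comparison where 0.0783% of all genes tested rose and 0.00522% fell. No member was at an unadjusted p under 0.05 by edgeR in either class, against 678 higher and 468 lower of all 19156 genes. DESeq2 called no member. Nuclear changes ran from -0.11 to 0.12 (median 0.02), and all 73 intervals lay within 0.5 of 0 on the log2 scale. All 13 mitochondrial changes were negative, from -0.30 to -0.08, with a median of -0.19. Without inhibitor replicate 3 that median was -0.04. Uqcrfs1 was at 84.7, 72.1, 78.9 and 88.2 CPM with inhibitor and at 72.3, 78.8, 82.5 and 93.2 CPM with inhibitor plus nocodazole, ranges that overlapped throughout. mt-Nd3 was at 38.0, 39.9, 42.2 and 34.6 CPM with inhibitor and at 46.7, 40.8, 43.8 and 14.6 CPM with inhibitor plus nocodazole, where replicate 4 stood alone.

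Among nocodazole-treated libraries, 5 nuclear genes were higher with inhibitor and 0 lower, against 17.7% and 16.2% of all genes tested, and no mitochondrial gene was called. Ndufv3 was at 89.8, 89.2, 95.3 and 94.5 CPM in nocodazole and at 113, 115, 120.2 and 112 CPM with both compounds, with no overlap (0.32 ± 0.0462, SE, edgeR adjusted p = 5.24e-05). Cox7a2l was at 86.4, 94.6, 91.2 and 102 CPM with both, above the nocodazole maximum of 81.2 CPM (0.27 ± 0.0624, edgeR adjusted p = 0.00287). These calls of Ndufv3 and Cox7a2l held under all 23 alternatives. Atp5s, at 9.10, 10.2, 9.09 and 11.8 CPM in nocodazole and 9.84, 12.9, 14.8 and 12.6 CPM with both, overlapped and was called (0.32 ± 0.109, edgeR adjusted p = 0.0327), a call lost under 8 of the 23 alternatives. Ndufs1 and Ndufb10 rose by 0.17 and 0.16, and these calls were lost under 6 and 14 alternatives. The count of called genes was 2 without inhibitor plus nocodazole replicate 2, 3 or 4, or nocodazole replicate 1 or 3. Nuclear changes had a median of -0.00 and mitochondrial changes one of -0.05, with 4 of 13 above 0. No mitochondrial gene was at an unadjusted p under 0.05 by edgeR, against 4285 higher and 3910 lower of all 19156 genes. DESeq2 called no mitochondrial gene. The sign of that mitochondrial median depended on single libraries. It was -0.23 without inhibitor plus nocodazole replicate 1, -0.17 without nocodazole replicate 3 and -0.10 without nocodazole replicate 4. It was 0.07 without inhibitor plus nocodazole replicate 4, 0.04 without nocodazole replicate 2, 0.03 without nocodazole replicate 1 and 0.0026 without inhibitor plus nocodazole replicate 3.

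The interaction (the change after nocodazole in the presence of inhibitor, less the change in its absence) was called for 4 nuclear genes, all positive, against 9.51% of all genes tested that were positive and 9.2% that were negative. These were Ndufs1 (0.25 ± 0.0761, SE, edgeR adjusted p = 0.0304), Uqcrc2 (0.18 ± 0.0611, edgeR adjusted p = 0.0449), Cox7a2l (0.26 ± 0.0882, edgeR adjusted p = 0.0466) and Ndufs3 (0.25 ± 0.0845, edgeR adjusted p = 0.0496). For Ndufs1 the mean went from 126 to 108 CPM without inhibitor and from 119 to 122 CPM with it. For Ndufs3 it went from 49.9 to 43.5 CPM without inhibitor and from 42.5 to 44.1 CPM with it, so both inhibitor groups stood near the nocodazole level and below DMSO. All 7 nuclear core genes of complex I were positive (median 0.14), and 20 of 30 accessory genes were (median 0.03). Every one of the 4 calls was lost under some alternatives, in 8 of 22 for Ndufs1 up to 15 of 22 for Ndufs3. No nuclear gene was called without DMSO replicate 4, nocodazole replicate 1, inhibitor replicate 2 or 3, or inhibitor plus nocodazole replicate 3 or 4.

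For mitochondrial genes the interaction was negative in all 13, from -0.83 for mt-Nd6 to -0.09 for mt-Nd3 (median -0.45), and edgeR called none. At an unadjusted p under 0.05 by edgeR, 2 were lower (mt-Nd6 and mt-Co2) and 0 higher, against 3161 lower and 3240 higher of all 19156 genes. DESeq2 called no mitochondrial gene. mt-Nd5, a proton-pumping subunit of complex I, went from 1215 to 1590.4 CPM without inhibitor and from 1807 to 1468 CPM with it (-0.69 ± 0.343, SE, edgeR adjusted p = 0.171). Its highest libraries were inhibitor replicate 3 at 2391 CPM and inhibitor plus nocodazole replicate 1 at 2264 CPM. Without the latter library 6 mitochondrial genes were called lower: mt-Co1, mt-Co2, mt-Co3, mt-Nd4, mt-Nd4l and mt-Nd5. Their changes in that fit ran from -0.54 for mt-Co2 to -1.02 for mt-Co1, and 12.7% of all genes tested were then called negative. The median SE of a mitochondrial gene was 0.18 in the comparison of nocodazole with DMSO and 0.26 in the interaction, against 0.07 and 0.11 for nuclear genes.

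**Figure D4:**
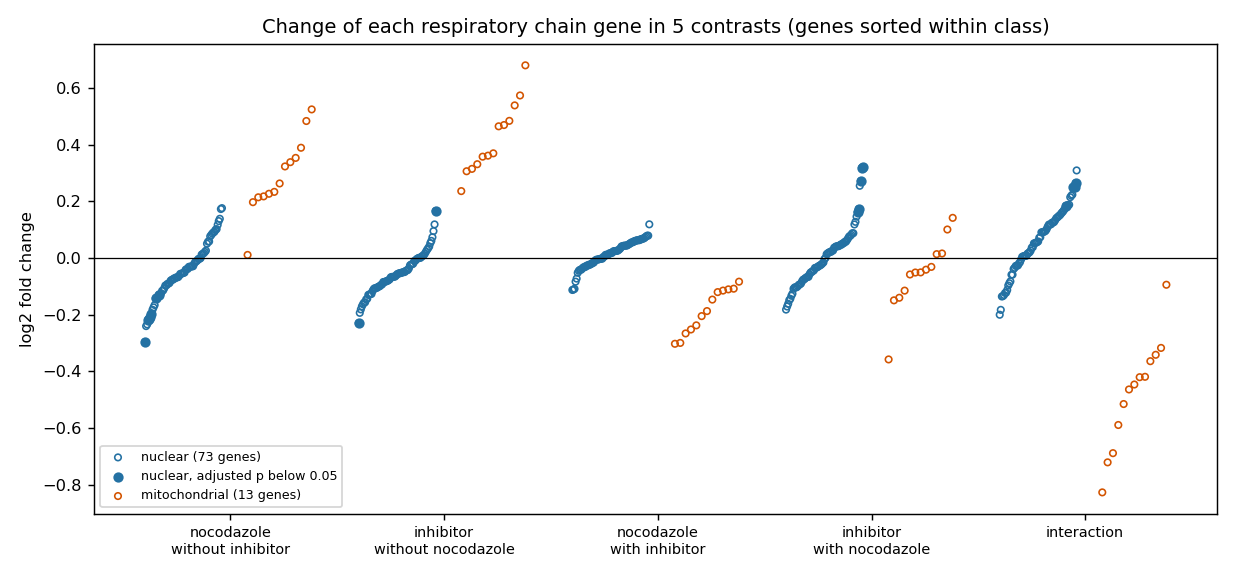
Log2 fold change of each of the 73 nuclear genes (blue, filled where the edgeR adjusted p is below 0.05) and 13 mitochondrial genes (orange, none called) in the 5 comparisons, sorted within class. Nuclear changes stay between -0.30 and 0.32, and mitochondrial changes are all above 0 after nocodazole alone and inhibitor alone and all below 0 in the interaction.

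Changes of nuclear genes in the comparison of nocodazole with DMSO varied with transcript length, though not in every nocodazole library. The 24 shortest members (371 to 683 bases) had a median of -0.00 with 10 positive, the 24 of middle length (704 to 1079 bases) a median of -0.03, and the 25 longest (1110 to 4715 bases) a median of -0.08 with 2 positive. Of the 7 genes that fell, 5 were among the longest and 0 among the shortest. Medians over all coding genes with at least 5 CPM in these length ranges fell in the same order, at 0.05 (121 genes), -0.02 (402 genes) and -0.06 (6802 genes), so the order of the medians is not particular to the members. The Spearman correlation of length with the change was -0.37 over the members. Over coding genes with at least 5 CPM it was -0.01 (10325 genes), and -0.03 over the 7371 no longer than the longest member. As a description by library, the mean of the shortest minus that of the longest was -0.04, 0.03, 0.21 and 0.09 in nocodazole replicates 1 to 4. It was between -0.04 and 0.03 in the DMSO libraries and between -0.10 and 0.07 in the groups with inhibitor. Nocodazole replicates 1 and 2 thus stood near the DMSO values, and replicate 3 was the highest library. The part of transcript length in the calls was not tested.

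Ppargc1a and Esrra fell after nocodazole, and Nrf1, Gabpa, Gabpb1 and Esrrb rose. In a list of 18 regulators of mitochondrial biogenesis, 7 rose and 5 fell after nocodazole, 1 rose with inhibitor, 0 changed with nocodazole in the presence of inhibitor, 5 were higher and 7 lower with inhibitor among nocodazole-treated libraries, and the interaction was positive for 4 and negative for 6. Of all genes tested, 18.6% rose and 19% fell after nocodazole, 5.78% rose with inhibitor, 17.7% were higher and 16.2% lower with inhibitor among nocodazole-treated libraries, and the interaction was positive for 9.51% and negative for 9.2%. The list medians were 0.15, 0.04, -0.01, -0.15 and -0.11. Ppargc1a, which encodes the coactivator PGC-1α, was at 14.9, 19.1, 16.0 and 15.5 CPM in DMSO and at 7.80, 8.76, 9.36 and 9.91 CPM after nocodazole. It was at 24.4, 18.4, 20.6 and 24.9 CPM with inhibitor and at 14.8, 26.7, 25.1 and 22.4 CPM with both. The nocodazole group lay below all others, and the changes were -0.87 ± 0.156 without inhibitor (SE, edgeR adjusted p = 0.000364) and 0.01 ± 0.15 with it, with an interaction of 0.88 ± 0.216 (edgeR adjusted p = 0.0104). Esrrb, an estrogen-related receptor gene, had the largest increase of the list, from 0.215 ± 0.0694 to 2.12 ± 0.285 CPM (SD, n = 4, log2 change 3.27 ± 0.38, SE, edgeR adjusted p = 6.25e-06).

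Regulators whose motifs were searched are named for that reason, chosen after their values were seen. Nrf1 and both subunits of GABP rose after nocodazole. Nrf1 was at 13.8, 13.6, 14.6 and 14.9 CPM in DMSO and at 17.6, 17.4, 21.0 and 18.5 CPM after nocodazole (0.39 ± 0.105, SE, edgeR adjusted p = 0.00759). Gabpa, the DNA-binding subunit, stood at 19.3 ± 0.692 CPM in DMSO and at 25.4 ± 1.99 CPM after nocodazole (SD, n = 4), a change of 0.40 (edgeR adjusted p = 0.000386). Gabpb1, its partner, was at 11.7, 12.7, 11.5 and 10.8 CPM in DMSO and at 19.9, 17.4, 21.5 and 17.8 CPM after nocodazole (0.71 ± 0.0792, edgeR adjusted p = 4.06e-06). With both compounds Gabpb1 was at 9.60 to 10.8 CPM, below all nocodazole libraries. Esrra, which acts with PGC-1α on respiratory genes, moved the other way: it was at 22.5 to 25.2 CPM in DMSO and 17.6 to 18.2 CPM after nocodazole (-0.41 ± 0.0769, edgeR adjusted p = 0.000543), and at 25.2 to 31.4 CPM with inhibitor. Yy1 was not called in any comparison, with a change of -0.12 ± 0.0608 after nocodazole.

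**Figure D5:**
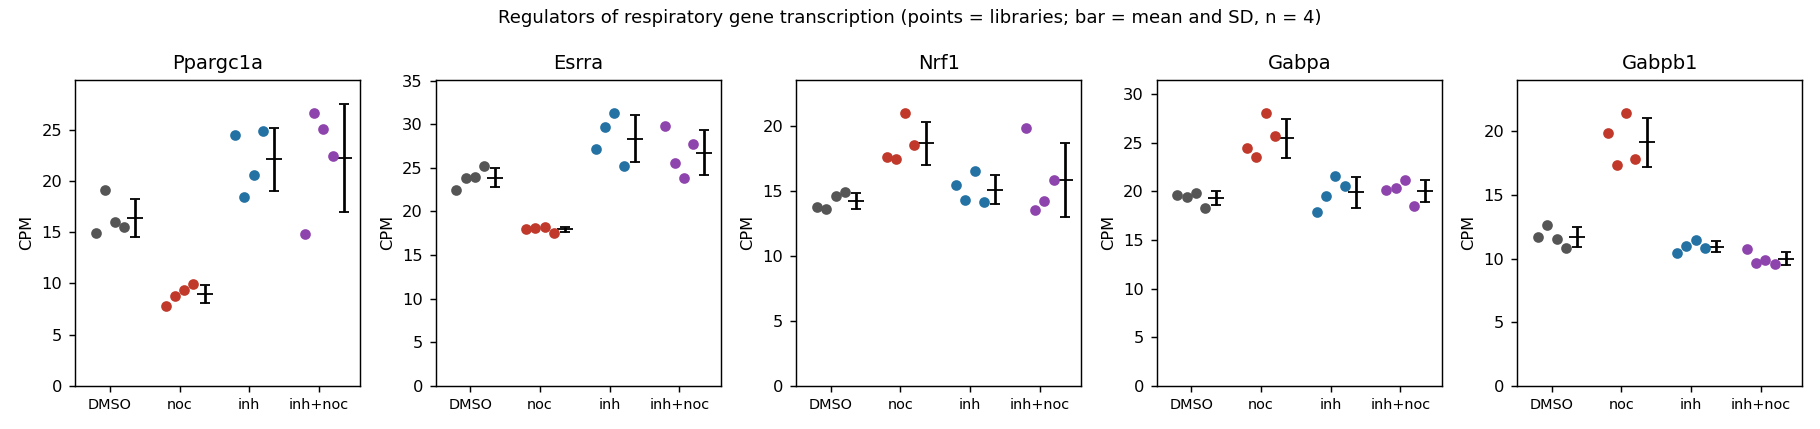
CPM of Ppargc1a, Esrra, Nrf1, Gabpa and Gabpb1 (linear axes from 0), with 1 point per library and a bar for the mean and SD of 4 libraries in each group. After nocodazole alone Ppargc1a and Esrra lie below the 4 DMSO points and Nrf1, Gabpa and Gabpb1 lie above them.

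The machinery that transcribes the mitochondrial genome and handles its RNA had calls after nocodazole at shares near those of all genes tested (18.6% rose and 19% fell). Of 27 genes tested in that list, 6 rose and 5 fell after nocodazole (median 0.08), 2 rose and 3 fell with inhibitor (median 0.07, against 5.78% and 7.24% of all genes), and 5 were higher and 3 lower with inhibitor among nocodazole-treated libraries (median 0.01, against 17.7% and 16.2%). The interaction was positive for 2 and negative for 2 (against 9.51% and 9.2%), and 0 were called for nocodazole in the presence of inhibitor. Mtpap, the mitochondrial poly(A) polymerase, rose by 0.44 ± 0.0937 after nocodazole (SE, edgeR adjusted p = 0.00159). Mterf2, a mitochondrial transcription termination factor relative, had a change of -0.58 ± 0.0954 (edgeR adjusted p = 0.000175), and was higher by 0.82 with inhibitor among nocodazole-treated libraries. With inhibitor alone, Fastkd1, of a family of mitochondrial RNA-binding proteins, rose by 0.32 ± 0.091 (edgeR adjusted p = 0.0301), and Elac2, the nuclease that cuts mitochondrial transfer RNAs from their precursors, had a change of -0.24 ± 0.0591 (edgeR adjusted p = 0.0141).

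Complex II has no mitochondrially encoded subunit and is outside the names used. After nocodazole, 3 of its 4 genes fell and 0 rose, with a median of -0.17, where 19% of all genes tested fell. Sdhd, a membrane anchor of complex II, went from 84.6 ± 5.24 to 69.2 ± 3.55 CPM (SD, n = 4, -0.29 ± 0.0572, SE, edgeR adjusted p = 0.000791), with 82.8 ± 2.02 CPM with inhibitor and 86.1 ± 5.22 CPM with both. Its interaction was 0.35 ± 0.0807 (edgeR adjusted p = 0.00723), and 2 of 4 genes of complex II were called there, both positive, against 9.51% of all genes tested. Of cytochrome c (Cycs) and Cyc1, the cytochrome c1 gene of complex III, Cyc1 had a change of -0.13 ± 0.0473 after nocodazole (edgeR adjusted p = 0.0343).

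Assembly factors build the complexes but do not stay in them. Of 16 complex I assembly factors, 2 fell and 0 rose after nocodazole, against 19% and 18.6% of all genes tested. The larger decrease was that of Ndufaf4, at 18.4 ± 1.05 CPM in DMSO and 13.4 ± 1.13 CPM after nocodazole (SD, n = 4, -0.46 ± 0.0716, SE, edgeR adjusted p = 0.000111). With inhibitor Ndufaf4 was at 19.6 ± 0.775 and 19.9 ± 1.10 CPM without and with nocodazole, and its interaction was 0.48 ± 0.1 (edgeR adjusted p = 0.00396). Acad9, which also works in fatty acid oxidation, was the 1 complex I assembly factor that fell with inhibitor alone (-0.27 ± 0.0583, edgeR adjusted p = 0.00743). Of 30 factors for complexes III, IV and V, 4 rose and 3 fell after nocodazole, against 18.6% and 19% of all genes tested. Cox17, a copper chaperone of cytochrome oxidase, went from 11.5 ± 1.22 to 16.0 ± 1.35 CPM (0.48 ± 0.102, edgeR adjusted p = 0.00154), and Lyrm7, which helps insert the Rieske protein Uqcrfs1, from 6.52 ± 0.706 to 4.35 ± 0.243 CPM (-0.58 ± 0.145, edgeR adjusted p = 0.00462).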

How the data were processed

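The counts analysed are the whole numbers in 1 table that the authors deposited, with Ensembl identifiers in rows and the 16 libraries in columns. Per the submitters' processing notes, STAR and Salmon were used with genome build GRCm39. Their versions, and which of them made the numbers, are not given in the sources used here, so the counts may be reads or rounded estimates, and strand settings are unknown. Per the labels' protocols, libraries were made from total RNA after ribosomal depletion, so RNA without a poly(A) tail is included. Symbols and transcript lengths came from GENCODE M21 on GRCm38 (94.1% of identifiers matched), and that build differs from the authors', so no coordinates were joined to counts. Rows without a symbol held 3.55% of counts. Promoters came from RefSeq (GRCm38.p6).

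Columns were assigned to groups by the titles in the labels. Counts were fitted with edgeR 4.0.16 (limma 3.58.1, R 4.3.3) after TMM scaling and the filterByExpr filter, with 1 mean per group over all 16 libraries. SEs and 95% intervals derive from that fit. CPM used TMM-scaled library sizes, and classes were summed over members with no test. Alternatives were DESeq2 1.42.0, other scalings, no filter, fits of only the groups compared, the replicate number in the model, other level thresholds, and each library left out. The fit was tested on simulated counts. It called 7% of 100 genes changed by 0.25 and 62% of 100 changed by 0.5 on the log2 scale, with 1 false call. Far fewer genes were changed there than were called after nocodazole, so these shares need not hold for the real comparisons. The changed genes were drawn from all genes of at least 5 CPM, with noise drawn separately for each gene. Mitochondrial genes had larger SEs than nuclear genes and moved together, so the shares do not apply to that class.

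Named were all mitochondrial members, up to 3 called nuclear members per comparison and direction with the largest changes, the nuclear member with the highest CPM of each complex, isoform sets, and in other lists the called gene with the largest increase and decrease. Uqcrc2 and the other 5 or fewer genes behind a count are named beyond that rule, after their values were seen. The members and lists were chosen with earlier results of these data known.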

Additional observations from a re-analysis of the deposited data

Results flagged for a closer look

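Single libraries that stood apart from the other 3 of their group (by Dixon's gap test at the 95% level) were found for 11 of 140 groups of values checked, and chance alone flags about 1 in 20. For mitochondrial genes all such cases were inhibitor replicate 3, with mt-Nd1 at 1386 CPM, mt-Nd2 at 665 CPM, mt-Atp6 at 607 CPM and mt-Cytb at 1342 CPM. Inhibitor replicate 2 stood apart on the low side for Atp5g3 at 179 CPM, Cox7a2l at 80.6 CPM and Ndufa10 at 149 CPM. DMSO replicate 4 was high for Uqcrc1 at 356 CPM, inhibitor plus nocodazole replicate 4 was high for Uqcrc1 at 313 CPM, inhibitor plus nocodazole replicate 1 was low for Cox7a2 at 47.5 CPM, and nocodazole replicate 1 was low for Ndufs3 at 40.6 CPM.

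The nocodazole change with inhibitor differed from that without it for Ndufs3 (0.25, edgeR adjusted p = 0.0496), Cox7a2l (0.26, edgeR adjusted p = 0.0466), Ndufs1 (0.25, edgeR adjusted p = 0.0304) and Uqcrc2 (0.18, edgeR adjusted p = 0.0449), each by the interaction term.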

How the results depend on the processing

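With each library left out in turn, nuclear genes called numbered 4 to 8 for nocodazole without inhibitor, 0 to 4 for inhibitor without nocodazole, 2 to 7 for inhibitor with nocodazole and 0 to 6 for the interaction. Mitochondrial genes called numbered 0 to 3, 0 to 2, 0 and 0 to 6 in the same order, and 0 genes of either class were called for nocodazole with inhibitor. Under DESeq2, fits of only the groups compared, total counts or the replicate block, 1 mitochondrial gene was called for nocodazole without inhibitor, and 2 for inhibitor without nocodazole in fits of only the groups compared. Nuclear calls for inhibitor without nocodazole were 4 under DESeq2 or scaling without mitochondrially encoded genes and 1 with no filter. For inhibitor with nocodazole they were 2 with no filter and 3 in fits of only the groups compared. Interaction calls were 2 under RLE size factors or total counts and 0 with no filter. The cause was not tested. The sign of mt-Nd3 reversed after nocodazole with no filter (-0.0063), scaling without mitochondrially encoded genes (-0.0056) and without 5 of the libraries, and in the interaction without 2. With each library left out in turn it ran from -0.0974 to 0.1465 and from -0.2369 to 0.1715.

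Libraries of the same replicate number were not alike as a rule (correlation of same-numbered deviations -0.399 to 0.232), though some pairs were each other's closest match. This check cannot exclude a culture or litter shared by same-numbered libraries. With the replicate block 9 nuclear genes were called for nocodazole without inhibitor and 3 for the interaction. Class levels against DMSO kept their sign without any single library: 0.22 to 0.47, 0.35 to 0.59 and 0.09 to 0.40 for the mitochondrial class (nocodazole, inhibitor, both) and -0.10 to -0.04, -0.11 to -0.05 and -0.08 to -0.01 for the nuclear class. Nocodazole and inhibitor each held more than a single library with a high mitochondrial to nuclear ratio. Leaving out single libraries therefore cannot show whether the mitochondrial difference of these groups holds without them. A change under about 0.5 on the log2 scale was within the intervals of most mitochondrial genes.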

Other observations

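Other mitochondrial gene lists, outside the respiratory chain names, held the following calls. Of 78 mitochondrial ribosomal protein genes, 3 rose and 17 fell after nocodazole (median -0.11), where 18.6% of all genes tested rose and 19% fell. With inhibitor 1 rose and 7 fell (5.78% and 7.24% of all genes), and the interaction was positive for 9 and negative for 1 (9.51% and 9.2%). The falls were thus near the share of all genes. Mrps12, a protein of the small subunit, stood at 21.4 ± 1.52 CPM in DMSO and at 14.5 ± 0.597 CPM after nocodazole (SD, n = 4), a change of -0.56 (edgeR adjusted p = 7.11e-05), and was at 18.6 ± 1.37 and 18.6 ± 2.03 CPM in the groups with inhibitor. Mrpl38 stood at 39.4 ± 3.94 and 40.5 ± 2.70 CPM in the groups without inhibitor and at 27.8 ± 1.16 and 29.0 ± 2.21 CPM in those with it. Of 19 tricarboxylic acid cycle genes, 1 rose and 7 fell after nocodazole (median -0.15), against the same 18.6% and 19% of all genes. Idh2, the mitochondrial NADP-dependent isocitrate dehydrogenase, had a change of -0.80 ± 0.164 (SE, edgeR adjusted p = 0.0011) and an interaction of 0.81 ± 0.231 (edgeR adjusted p = 0.0223).

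Of 20 mitochondrial chaperones and proteases, 4 rose and 5 fell after nocodazole, near the 18.6% and 19% of all genes tested. Lonp1, the main matrix protease, rose by 1.00 ± 0.224 (SE, edgeR adjusted p = 0.00222). Hspa9, the matrix Hsp70, stood at 315 ± 26.0 CPM in DMSO and at 509 ± 49.9 CPM after nocodazole (SD, n = 4), a change of 0.69 (edgeR adjusted p = 8.52e-05), with 388 ± 45.6 and 449 ± 67.4 CPM in the groups with inhibitor and an interaction of -0.48 ± 0.149 (edgeR adjusted p = 0.0331). Phb, which forms a scaffold of the inner membrane, fell from 108 ± 6.30 to 89.4 ± 3.91 CPM (edgeR adjusted p = 0.0107).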
